A study of Drosophila melanogaster with 8 samples.

Results

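TOR and AMPK are the 2 kinases through which animal cells match growth to nutrients and energy. The genes described here code for the core of that pathway in Drosophila melanogaster: the kinase TOR (listed as Tor, with the current symbol mTor), its complex partners raptor and rictor, the GTPase Rheb, the brake proteins gig (Tsc2) and Tsc1, the kinase S6k, and the 3 subunits of AMPK, AMPKalpha, SNF4Agamma and alc (the beta subunit). A gene was represented by the probe set whose annotation gave its symbol alone, and by the brightest one where there were several. Of the 10 genes, 8 were found under their listed symbols and mTor through its gene identifier, which gave 9 of the 11982 genes on the array. Rheb was not analysed here. Each of the 9 had 1 such probe set, so no second one could be set beside it.

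Heads of diapause females were set against heads of non-diapause females, 4 arrays each. All were wild-type Canton S females, collected no more than 8 h after eclosion and then held at 12.5 °C for 12 days. Light was on for 14 h and off for 10 h, a day length at which part of the population arrests egg development. Both groups thus shared strain, age, light and temperature, and were sorted by the state of their ovaries at dissection. Whole heads hold brain, eyes, fat body and muscle, and a lower signal from fewer cells of a type cannot be told apart from less RNA per cell.

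TOR works in a pair of complexes. With raptor it is switched on by amino acids and by Rheb, and then activates S6k and protein synthesis, whereas with rictor it acts on Akt. Tsc1 and gig hold Rheb inactive. AMPK senses a fall in cellular energy through its gamma subunit, and its alpha subunit phosphorylates targets that save energy, among them steps that restrain TOR. Reproductive diapause in flies is an arrest of yolk deposition, a process that draws on the same nutrient signals. Most of this control is by phosphorylation, which arrays of transcripts do not measure.

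Values are log2 expression values from arrays of which 18769 probe sets were tested. They ran from 2.16, a floor shared by all arrays, to 15.7, and Pearson's r between arrays was 0.976 to 0.998. Nothing in the labels ties the arrays to separate cultures, and the p-values therefore reflect array-to-array spread, which can be technical. Head markers were present (5 of 5 eye and 6 of 6 neuronal markers above the floor), and of 9 ovary and germ line markers 1 was above the floor, grk at 7.12. Some lists moved with group or array. Summarised over 7 fat body markers, the mean level spanned 14.17 to 14.42 on diapause arrays and 14.48 to 14.81 on non-diapause arrays. For 6 muscle markers the span was 10.12 to 10.18 in diapause, against 9.50 to 9.96 in non-diapause heads. All 9 digestive tract markers were nominally higher in diapause, 1 of them, CG8560, at unadjusted p under 0.05 and 0 after adjustment. CG8560 read 2.80, 8.33, 2.76 and 2.82 on non-diapause 1 to 4, against 8.54 to 9.70 in diapause heads. Jon99Ci read 12.14, 9.26, 2.42 and 11.03 there, against 7.93 to 10.36 in diapause heads, so its direction rested on non-diapause 3. Whether any of these lists bears on the genes below was not tested. Non-diapause 3 stood apart with a mean of 2.77 over the digestive tract markers, beside 8.65 to 11.77 elsewhere. Diapause 3 did so with a mean of 11.44 over 4 stress genes, beside 6.40 to 8.15 elsewhere.

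Of the 9 genes, 7 gave a signal above the floor and 2 did not. The probe set of raptor, the subunit that brings substrates to TOR complex 1, read 2.48, 2.48, 2.51 and 2.48 on the diapause arrays and 2.48 on all 4 non-diapause arrays. That of alc read 2.28 on all 8 arrays. Levels this close to the floor say nothing about either gene. A second probe set is annotated to raptor and Mipp2 together and was not assigned to either: it read 9.59, 9.52, 9.61 and 9.58 in diapause and 9.52, 9.46, 9.61 and 9.52 in non-diapause heads (difference 0.05, 95% interval -0.04 to 0.13).

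None of the 7 genes passed the test. In limma with Benjamini-Hochberg adjustment over all probe sets, 0 of 7 had an adjusted p under 0.05, as had 0% of all 18769 probe sets, and the adjusted p was 1 for each of the 7. By the exact permutation test the smallest unadjusted p among the 7 was 0.0571. At an unadjusted p under 0.05 there was 1 of 7, mTor, beside 6.51% of bright probe sets, those whose mean over the 8 arrays was 6 or more, as it was for all 7. The median difference over the 7 genes, diapause minus non-diapause, was 0.03, and over all bright probe sets it was 0.00. Of the 7, 5 were nominally higher in diapause (51.3% of bright probe sets) and 2 nominally lower, and in 0 of the 7 were the groups free of overlap (4.32% of bright probe sets).

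**Figure D1:**
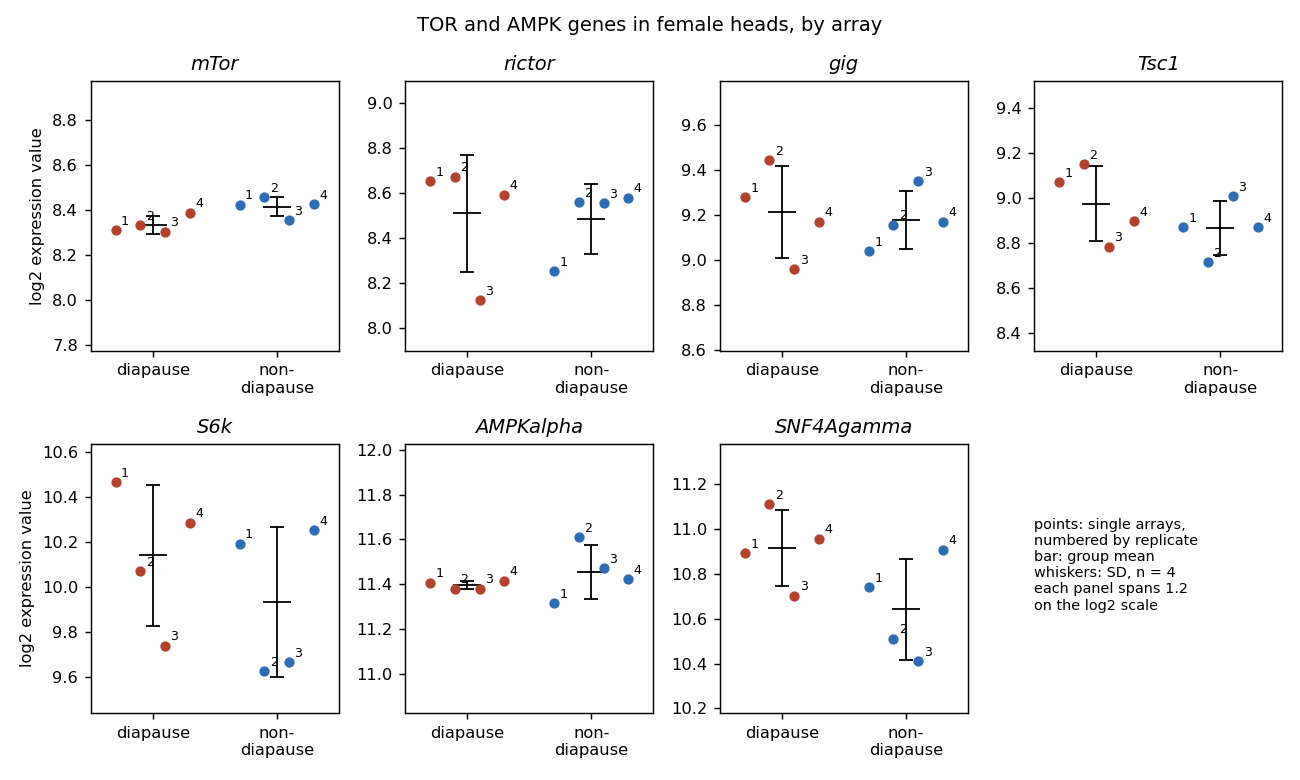
Log2 expression values of the 7 measured genes on each array, diapause left and non-diapause right in each panel, with the group mean and SD (n = 4). In every panel the 2 groups overlap, and mTor and AMPKalpha vary least.

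The kinase gene mTor read 8.31, 8.33, 8.30 and 8.39 on diapause arrays 1 to 4, against 8.42, 8.46, 8.35 and 8.42 on non-diapause arrays 1 to 4. Diapause arrays lay lower apart from diapause 4, which stood above non-diapause 3. The means were 8.33 ± 0.04 in diapause and 8.41 ± 0.04 in non-diapause heads (SD, n = 4 each). Their difference was -0.08 ± 0.03 (SE), a fold of 0.945 with a 95% interval of 0.901 to 0.991. Over all 70 ways to split the arrays, a 2-sided exact permutation test gave p = 0.0571, where the smallest possible is 0.0286. This small difference stood out because mTor varied little: 1.57% of bright probe sets had a smaller SD within groups. Where the spread of mTor was drawn further toward that of other probe sets, as in limma-trend with a robust prior, the unadjusted p was 0.415. After a second quantile normalization the difference was -0.11, with an unadjusted p of 0.00175 and an adjusted p of 0.602 in limma.

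The rictor gene, coding for the defining subunit of TOR complex 2, read 8.65, 8.67, 8.13 and 8.59 in diapause and 8.25, 8.56, 8.56 and 8.58 in non-diapause heads. One array in each group lay well below its other 3, diapause 3 and non-diapause 1. The difference was 0.02 ± 0.15 (SE), with a fold interval of 0.794 to 1.30. The direction of rictor was not stable when single arrays were left out, being 0.15 without diapause 3 and -0.05 without non-diapause 1.

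Neither brake gene passed the test. Values of gig, the gene of Tsc2, were 9.28, 9.44, 8.96 and 9.17 in diapause and 9.04, 9.16, 9.35 and 9.17 in non-diapause heads. Diapause arrays held both the highest and the lowest value of gig. The difference was 0.03 ± 0.12 (SE), with a fold interval of 0.841 to 1.25, and it turned to -0.04 without diapause 2. Its partner Tsc1, which stabilises Tsc2, read 9.07, 9.15, 8.79 and 8.90 in diapause and 8.87, 8.72, 9.01 and 8.87 in non-diapause heads. Diapause 1 and 2 lay above all non-diapause arrays, whereas diapause 3 and 4 lay among them. The difference of Tsc1 was 0.11 ± 0.10 (SE), with a fold interval of 0.913 to 1.27, and it was 0.05 without diapause 2, 0.06 without non-diapause 2 and 0.17 without diapause 3.

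S6k, the kinase that TOR complex 1 activates to promote translation, varied most among the 7 genes. It read 10.47, 10.07, 9.74 and 10.29 in diapause and 10.19, 9.62, 9.66 and 10.25 in non-diapause heads. Low values came from diapause 3, non-diapause 2 and non-diapause 3, so that both groups spanned most of the range. The difference was 0.21 ± 0.22 (SE), with a fold interval of 0.795 to 1.68, the widest of the 7. It was 0.10 when diapause 1 or non-diapause 2 was left out and 0.12 without non-diapause 3, but 0.34 without diapause 3 and 0.31 without non-diapause 4. Its SD within groups was larger than that of 81.1% of bright probe sets.

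The catalytic AMPK subunit gene AMPKalpha was nearly constant in diapause heads, at 11.41, 11.38, 11.38 and 11.42, and read 11.32, 11.61, 11.47 and 11.42 in non-diapause heads. Its SD was 0.02 among diapause and 0.12 among non-diapause arrays, and non-diapause 1 gave the lowest and non-diapause 2 the highest of the 8 values. The difference was -0.06 ± 0.06 (SE), with a fold interval of 0.868 to 1.06, among the narrowest of the 7. Leaving out non-diapause 2 gave -0.0080, and leaving out non-diapause 1 gave -0.11.

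The largest difference was that of SNF4Agamma, the energy-sensing gamma subunit, although it did not pass. It read 10.89, 11.11, 10.70 and 10.96 in diapause and 10.74, 10.51, 10.41 and 10.91 in non-diapause heads. Non-diapause 2 and 3 lay below all diapause arrays, whereas non-diapause 1 and 4 lay within their range. The means were 10.91 ± 0.17 and 10.64 ± 0.22 (SD, n = 4 each), a difference of 0.27 ± 0.14 (SE) and a fold of 1.21 with an interval of 0.961 to 1.52. The exact permutation test, 2-sided, gave p = 0.143. Of bright probe sets, 88.6% had a smaller difference in size. SNF4Agamma stood at 0.36 without non-diapause 4 and at 0.19 without non-diapause 3, the array with the lowest digestive tract signal.

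For all 7 genes the 95% interval lay inside a 2-fold change in either direction, the bound farthest from 0 being 0.75 on the log2 scale, for S6k. Changes in abundance below those bounds were not resolved at this number of arrays. On simulated data with the spread of each probe set, limma gave an adjusted p under 0.05 to 26.0% of those changed by 0.5. Of those changed by 1 on the log2 scale, it was 59.0%. The 200 changed probe sets of each round were drawn from bright ones. Noise was drawn separately for each probe set and array, so signal shared by many genes on single arrays was not simulated.

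**Figure D2:**
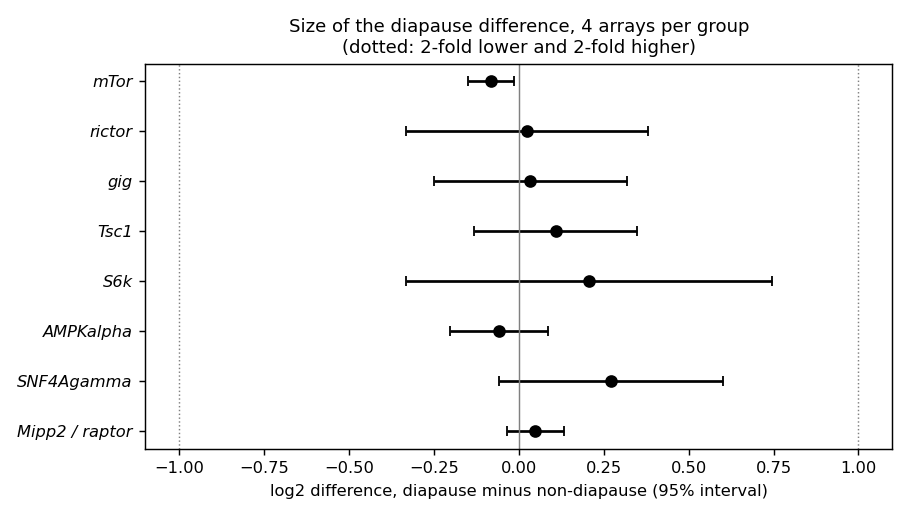
Difference in log2 expression, diapause minus non-diapause, with its 95% interval from limma for the 7 measured genes and for the probe set shared by Mipp2 and raptor. All intervals lie between the dotted lines of a 2-fold change, and that of mTor alone leaves out 0.

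Several of the genes were low or high together on single arrays. On diapause 3, 0 of the 7 genes were above their own mean over the 8 arrays, and the mean of the 7 centred values was -0.18, against 0.12, 0.13 and 0.07 on diapause 1, 2 and 4. On non-diapause 1 to 4 it was -0.06, -0.09, -0.06 and 0.06. The most alike profiles were those of rictor and gig, of gig and Tsc1, and of S6k and SNF4Agamma, with root mean square distances of 0.53, 0.56 and 0.65 between profiles scaled to unit SD. The 2 AMPK subunit genes were among the least alike, at 1.65, with AMPKalpha highest on non-diapause 2, where SNF4Agamma was low.

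As a mean, neuronal markers moved with these arrays too. Their mean level over 6 genes was 8.67, 9.29, 8.22 and 8.91 on diapause arrays 1 to 4, against 8.49, 8.14, 8.79 and 8.98 on non-diapause arrays 1 to 4. Diapause 2, highest for rictor, gig, Tsc1 and SNF4Agamma, also had the highest neuronal mean. Diapause 3, lowest for mTor, rictor and gig, and non-diapause 2, lowest for Tsc1 and S6k, had the lowest neuronal means. Not all genes followed: mTor and AMPKalpha were highest on non-diapause 2, where the neuronal mean was lowest. On non-diapause 3 the centred values of S6k and SNF4Agamma were both -0.37, beside 0.10 for the neuronal markers. The neuronal marker elav ranged from 9.71 to 10.97 in diapause and from 9.37 to 10.85 in non-diapause heads. Not all markers followed their mean: nSyb read 9.16, 9.67, 9.65 and 9.45 in diapause and 9.70, 9.29, 9.80 and 9.97 in non-diapause heads. Of the 6 markers, 5 were nominally higher in diapause and nSyb lower, at -0.20, and none was at the floor. The part of neuronal or stress signal in the values of the 7 genes was not tested. With diapause 3 and non-diapause 3 both left out, the median difference over the 7 genes was 0.18 and again 0 of 7 passed.

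**Figure D3:**
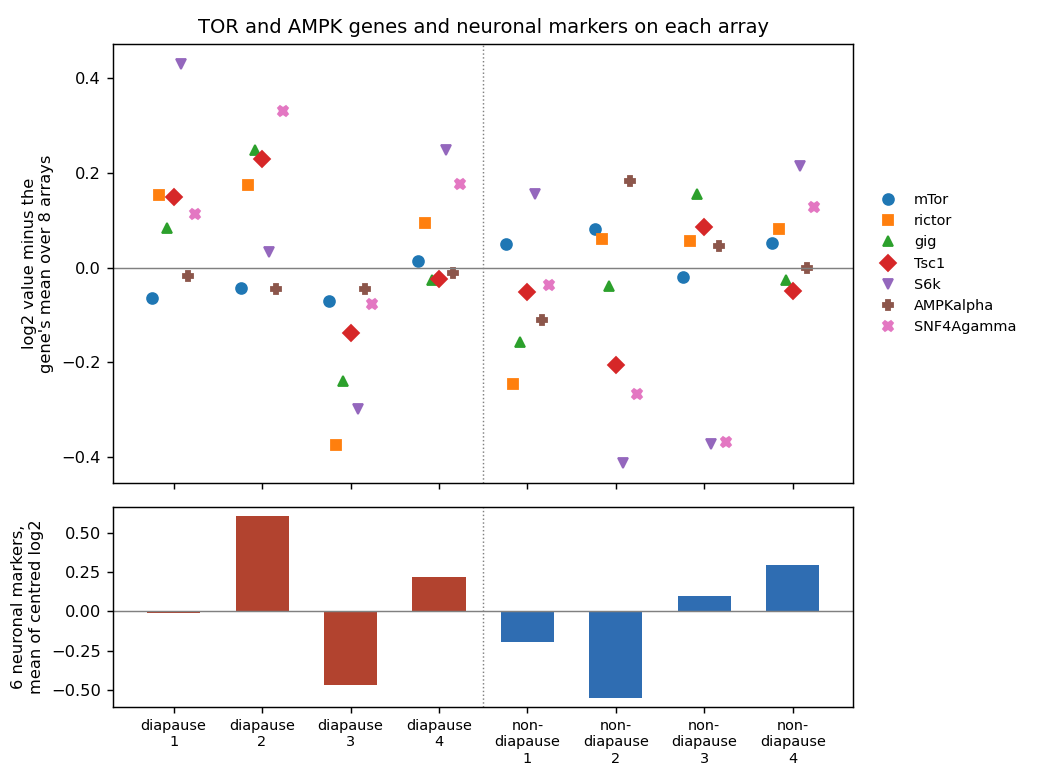
Upper panel, log2 values of the 7 genes on each array after subtracting each gene's mean over the 8 arrays; lower panel, the mean of 6 neuronal markers treated alike, diapause arrays left and non-diapause arrays right of the dotted line. All 7 genes lie below 0 on diapause 3, and S6k and SNF4Agamma are low on non-diapause 2 and 3.

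For mTor and SNF4Agamma, the genes with the smallest p among the 7, the most similar profiles over the 8 arrays were sought among 6366 other genes with bright probe sets. Closest to mTor were ND-42, coding for a subunit of respiratory complex I, 140up and slv, at distances of 0.34 to 0.38 (median over all genes 1.33). ND-42 read 12.49, 12.49, 12.48 and 12.60 in diapause and 12.64, 12.65, 12.57 and 12.58 in non-diapause heads. Closest to SNF4Agamma were the moesin gene Moe, AP-1gamma, coding for a subunit of a clathrin adaptor, and Rbcn-3B, at 0.35 to 0.37 (median 1.34). AP-1gamma read 8.29, 8.33, 7.86 and 8.36 in diapause and 8.09, 7.56, 7.71 and 8.20 in non-diapause heads. These genes were picked for their likeness, which is thus a description.

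Other genes of the pathway were followed in 6 lists. Of 59 listed genes, 48 had a probe set of their own, and by limma 0 of 48 passed after adjustment. At unadjusted p under 0.05 there were 8 of 48, 4 higher and 4 lower. All 8 were among the 46 bright ones, a share of 17.4% beside 6.51% of all bright probe sets. The lists were chosen by hand with earlier results of these data known, so shares and directions in them are a description. No test was made of the 17.4% share. It moved with the fit. In limma-trend with a robust prior there was 1 of 46, scyl (2.17%, beside 2.36% of bright probe sets). When only bright probe sets were fitted there were 4 of 46 (8.70%, beside 5.49%). With 1 array left out there were 3 to 7, the 3 without diapause 4. A second quantile normalization gave 10 of 46 (21.7%, beside 8.38%). Centring arrays on the median of bright probe sets gave 9 (19.6%, beside 8.995%). A replicate block gave 6 (13.0%, beside 5.37%) and array weights 6 (13.0%, beside 8.97%). Leaving out diapause 3 and non-diapause 3 together gave 3 (6.52%, beside 9.40%). The groups did not overlap for 2 of the 46 (4.35%, beside 4.32% of bright probe sets), lqfR and scyl.

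The stress-induced inhibitor gene scyl, whose product restrains TOR upstream of the Tsc proteins, showed the largest difference of the 48. It read 11.67, 11.61, 11.71 and 11.56 in diapause and 11.40, 10.87, 10.85 and 11.41 in non-diapause heads. Every diapause array lay above every non-diapause array, with non-diapause 2 and 3 the lowest, the same arrays that were low for S6k and SNF4Agamma. The difference of scyl was 0.51 ± 0.16 (SE), a fold of 1.42 with a 95% interval of 1.09 to 1.85. The adjusted p in limma was 1, and the exact permutation p was 0.0286, the smallest the design allows. Of the 5 measured upstream kinases and inhibitors 4 were nominally higher, with Akt, the insulin pathway kinase, at 0.17, Pdk1 at 0.11 and Mo25 at 0.05, and Stlk at -0.07 (median 0.11). A second, dimmer probe set of Stlk lay the other way, at 0.22. Leaving out non-diapause 2 brought Akt to 0.06, and leaving out non-diapause 4 to 0.28. The count lower, 1 of 5, became 2 when non-diapause 2 was left out and 0 without non-diapause 3.

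Genes that carry or regulate the amino acid signal to TOR complex 1 were mostly nominally lower. Some of them restrain the complex, so the count lower gives no direction of signalling. Of 15 measured genes of the Rag GTPases, the Ragulator complex that holds them on the lysosome, the GATOR complexes that regulate them and the nutrient sensors, 13 lay below their non-diapause mean in diapause (48.7% of bright probe sets), and the median was -0.08. At unadjusted p under 0.05 there were 4 of 15, all lower (4.70% of bright probe sets). That count moved with the fit. It was 0 of 15 in limma-trend with a robust prior and 2 when only bright probe sets were fitted. With 1 array left out it was 0 to 3, 0 without diapause 3 or diapause 4. A second quantile normalization gave 6 (beside 7.11% of bright probe sets) and array centring 4 (beside 7.88%). A replicate block gave 3 (beside 3.99%) and array weights 2 (beside 6.35%). The Ragulator gene Lamtor1 read 10.11, 9.92, 9.96 and 9.91 in diapause and 10.22, 10.14, 10.12 and 10.05 in non-diapause heads. Of these, only diapause 1 lay above a non-diapause array. The difference of Lamtor1 was -0.16 ± 0.06 (SE), and that of Nup44A, shared by GATOR2 and the nuclear pore, was -0.17 ± 0.06 (SE). Lamtor4 stood at -0.15 and the GATOR2 gene mio at -0.12. The largest fall of the 15 was that of Samtor, at -0.20. The exceptions were the sestrin gene Sesn, at 0.16, and Nprl3 at 0.08. Sesn read 10.46 on diapause 3, against 9.85 to 9.92 on the other diapause arrays and 9.80 to 9.92 in non-diapause heads. Leaving out any 1 array kept 12 or 13 of the 15 lower, and the adjusted p in limma was 1 for each of the 15.

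**Figure D4:**
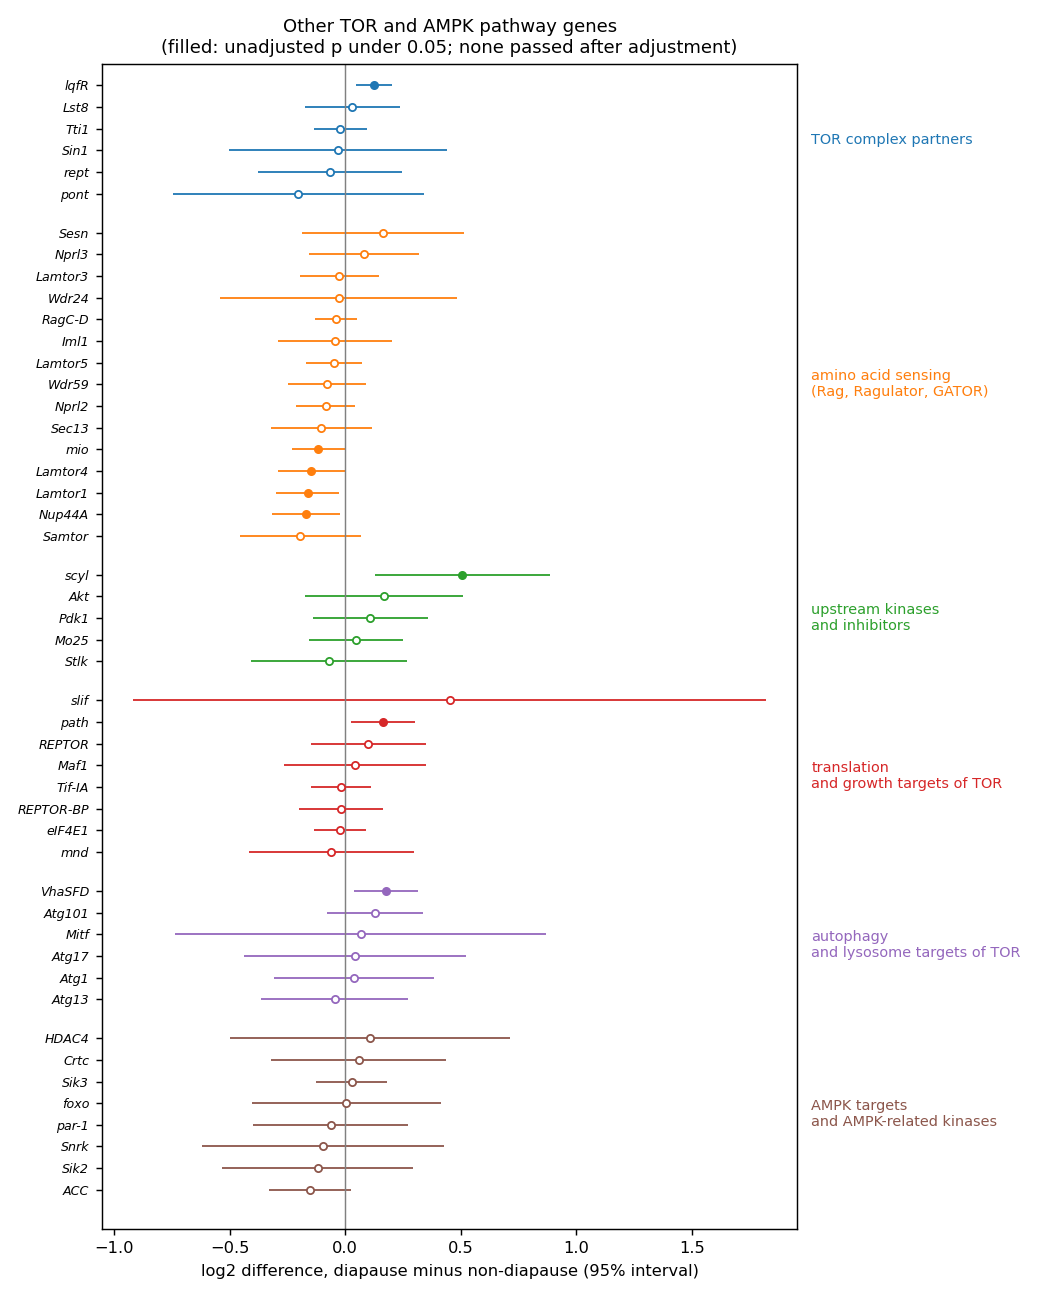
Difference in log2 expression, diapause minus non-diapause, with 95% intervals from limma for 48 other pathway genes in 6 lists; filled points had an unadjusted p under 0.05. Of the amino acid sensing genes, 13 of 15 lie left of 0, and scyl lies farthest to the right.

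In the lists of translation and growth and of autophagy and the lysosome, most differences were small. The amino acid transporter genes slif and path were placed in the first of these, not in the amino acid sensing list. Of 8 genes of translation and growth 4 were nominally higher and 4 lower (2 lower without diapause 3 or non-diapause 3), with eIF4E1, the cap-binding initiation factor, at -0.02. The amino acid transporter gene slif varied widely, at 7.82, 6.91, 8.42 and 7.70 in diapause and 7.05, 8.63, 6.30 and 7.05 in non-diapause heads, and its difference of 0.45 ± 0.57 (SE) lay within that spread. The factor REPTOR, which TOR keeps out of the nucleus, stood at 0.10, and at 0.01 without non-diapause 1. Another amino acid transporter gene, path, stood at 0.16 (unadjusted p under 0.05, higher: 1.80% of bright probe sets). Of 6 genes of autophagy and the lysosome 5 were nominally higher and 1 lower, a count that moved with single arrays: 2 were lower without diapause 2, 3 or 4 or non-diapause 1, and 4 without non-diapause 2. They were led by VhaSFD, a subunit of the vacuolar proton pump, at 0.18 ± 0.06 (SE). VhaSFD read 12.49, 12.48, 12.49 and 12.52 in diapause and 12.31, 12.49, 12.28 and 12.22 in non-diapause heads. Its values hardly varied in diapause, and non-diapause 2 alone reached them. The autophagy kinase gene Atg1 stood at 0.04 and its partners Atg13 and Atg101 at -0.05 and 0.13.

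Among TOR complex partners, 2 of 6 were nominally higher and 4 lower. The count lower became 2 without diapause 2 or non-diapause 4, and 5 without diapause 1 or non-diapause 2. The shared subunit gene Lst8 stood at 0.03 and Sin1, of TOR complex 2, at -0.03. The gene lqfR, to which the listed name Tel2 matched, read 10.34, 10.33, 10.40 and 10.29 in diapause and 10.27, 10.16, 10.24 and 10.19 in non-diapause heads. All diapause arrays lay above all non-diapause arrays by a narrow margin, and the difference was 0.13 ± 0.03 (SE) with an adjusted p of 1 in limma. A second probe set of lqfR was close to the floor, at 2.16 on all 8 arrays. The chaperone gene pont stood at -0.20, and at -0.01 without diapause 2. Targets of AMPK and its related kinases were split evenly, with 4 of 8 nominally lower and 0 of 8 at unadjusted p under 0.05, although 7 were lower without non-diapause 1. ACC, the acetyl-CoA carboxylase that AMPK inhibits, read 13.63, 13.37, 13.37 and 13.53 in diapause and 13.70, 13.67, 13.51 and 13.64 in non-diapause heads, a difference of -0.15 ± 0.07 (SE) between overlapping groups. The salt-inducible kinase gene Sik2 stood at -0.12 (-0.03 without non-diapause 3 and -0.22 without diapause 2), Crtc at 0.06 and foxo at 0.00.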

How the data were processed

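Total RNA of heads (6 µg) was labelled with biotin and hybridised by the authors to 1-colour Drosophila arrays, 4 per group. Groups follow the sample titles. The deposited log2 values, 1 per probe set and array, were made with GCRMA per the labels, which corrects background from probe sequence, normalizes by quantiles and summarises probes (its version: not given in the sources used here). Dim probe sets share a floor at which values have no order, and 6410 stayed within 0.01 of it. With 183 control probe sets left out, limma 3.58.1 in R 4.3.3 (lmFit, eBayes, 2-sided) was fitted to all 8 arrays and 18769 probe sets, with Benjamini-Hochberg adjustment and a threshold of 0.05. Names came from the platform annotation, and listed names without a match were sought through synonyms and gene identifiers in the RefSeq Release 6 table. Profiles were compared by root mean square distance.

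The 10 genes and the lists were chosen with earlier results of these data known. Named were all 10 genes, the 2 of smallest p in each list, and others picked by hand for their values or their place in the pathway. The fit was checked on simulated data (5 rounds of 200 changed probe sets). Alternatives covered the replicate block, dim-signal filters, limma-trend, array scaling, array weights, arrays left out, probe set averaging and an exact permutation test. Array centring on bright probe sets alone was added after seeing the data.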

Additional observations from a re-analysis of the deposited data

Results flagged for a closer look

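In a Dixon test of groups of 4 arrays, single values stood apart in 3 of the 41 groups tested for the named genes, where chance flags about 1 in 20, so that 3 is near what chance gives. On diapause 3, rictor read 8.13, against 8.59 to 8.67 on the other diapause arrays, and on non-diapause 1 it read 8.25, against 8.56 to 8.58 on the others of its group. The raptor probe set read 2.51 on diapause 3 and 2.48 on the rest, all close to the floor.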

How the results depend on the processing

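With 4 arrays per group, calls over all genes are limited by the spread between arrays. All 7 measured genes stayed short of an adjusted p of 0.05 under every alternative run except 1: when arrays were centred on the median of bright probe sets, 1 of 7 passed, mTor (-0.11, limma adjusted p = 0.0232). That setting also shifts the floor, and 6408 of its 7980 calls over all probe sets were floor values (8764 at unadjusted p under 0.05). Fitted on bright probe sets alone, the same centring gave 0 of 7 and mTor an adjusted p of 0.816. Over mTor's alternatives the adjusted p was 0.0232 to 1. All probe sets together gave 0 calls in the main comparison, 2 after a second quantile normalization and 4 with array weights (924 and 858 at unadjusted p under 0.05, where limma-trend gave 214 and the deposited values 563), and 0 to 2 with 1 array left out, the 2 without non-diapause 2. The count at unadjusted p under 0.05 among the 7 genes was 1, mTor, and became 0 with a filter at a mean of 4 or of 6, with limma-trend and with centred bright probe sets. It was 0 to 1 with 1 array left out: 0 without diapause 1, 2 or 3 or non-diapause 1 or 2, 1 (mTor) without diapause 4 or non-diapause 3, and 1 (SNF4Agamma, limma adjusted p = 1) without non-diapause 4. Small differences changed sign: rictor was -0.0052 after a second quantile normalization and -0.0051 after either centring, and -0.0533 to 0.15 with 1 array left out; gig was -0.0436 to 0.12 with 1 array left out; raptor, at the floor, was -0.021 after centring. The median over the 7 genes was -0.03 to 0.15 with 1 array left out. Arrays were not paired by replicate number in the main fit. Deviations of same-numbered arrays from their group means had r of -0.62 to 0.06. Such an r cannot show whether same-numbered arrays came from the same culture, and the labels do not say. A replicate block gave 0 calls, with 453 probe sets and 1 of the 7 genes at unadjusted p under 0.05. Filters on dim probe sets gave no value for raptor and alc, and averaging probe sets changed nothing, as each gene had 1.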
